A study of Mus musculus with 2 samples.

Results

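The Toll-like receptor (TLR) genes Tlr1, Tlr2, Tlr3, Tlr4, Tlr6, Tlr7, Tlr9 and Tlr11 and their adaptor gene Myd88 were followed in migratory dendritic cells (DCs) of mouse skin-draining lymph nodes. The 9 genes were chosen by name, and 8 of them are among the 18049 genes with expression values in both libraries. Tlr4 was not analysed here. The measurement was CITEseq, in which 3′ mRNA and the binding of 12 DNA-barcoded antibodies are counted in the same cell. Live MHCIIhi CD11c+ B220- cells were sorted from B6 mice aged 6 to 12 weeks. The naive library came from unimmunized mice. The papain library came from mice given 5 µg ovalbumin (OVA) and 50 µg of the protease allergen papain in both rear footpads 1 day earlier, whose popliteal nodes were taken. The study's methods give pooled skin-draining nodes as the source of the naive cells while the sample labels give popliteal nodes, so the site of the nodes and the immunization cannot be told apart.

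TLRs are receptors of innate immunity that bind conserved microbial molecules. TLR2 works as a pair with TLR1 or TLR6 at the cell surface and binds lipoproteins. TLR3, TLR7 and TLR9 sense nucleic acids inside endosomes, and TLR11 binds profilin of protozoan parasites. All of these receptors except TLR3 signal through MyD88, which also serves the IL-1 and IL-18 receptors, and the chain ends in NF-kB and in interferon regulatory factors. DCs use these receptors to mature and to set the kind of T cell help that follows.

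Cells were grouped by the authors' classes, which rest on the antibodies, so no mRNA value of the 8 genes took part in the grouping. There were 707 naive and 2893 papain CD301bhi cDC2s, 659 and 1827 CD301bint cDC2s, 658 and 1470 CD301blo cDC2s, 578 and 235 cDC1s, and 440 and 881 Langerhans cells (LCs). Levels are unique molecular identifiers (UMIs) of a gene summed over a class per 1000000 UMIs of that class (CPM). With 1 library per group there is no test, and the 95% intervals, exact Poisson for CPM, exact Clopper-Pearson for shares of cells and exact binomial for ratios, cover counting error only. For a count of 0 the limit given is that of 3 counts. The intervals leave out the spread between mice and between libraries. Those of CPM and ratios also take every UMI as independent. Where several UMIs of a gene lie in the same cell they are too narrow. Fewer expressing cells and less RNA per cell cannot be told apart in such sums, so the share of cells with a UMI is given beside some of them.

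The classes were checked against mRNA markers. The summed level of 6 cDC1 markers was 874 CPM in naive and 1255 CPM in papain cDC1s, against at most 642 and 739 CPM in another class. In naive cDC1s most of it came from Irf8 (566 CPM) and Batf3 (241 CPM), and Batf3 was also at 241 CPM in naive LCs. Xcr1 was at 16.9 CPM in naive cDC1s, against at most 6.94 CPM in another naive class. For Clec9a these values were 5.48 and 2.60 CPM. The 4 LC markers summed to 834 and 585 CPM in LCs, with 462 CPM in naive cDC1s as the next highest value. Mfge8 gave 657 CPM of the naive LC sum and 405 CPM of the naive cDC1 sum. Cd207 was at 45.7 CPM in naive LCs and 9.16 CPM in naive cDC1s. The 5 cDC2 markers summed to between 128 and 234 CPM in the cDC2 classes and to at most 84.1 CPM in cDC1s and LCs. Mgl2, the gene of CD301b, was at 56.1, 59.1 and 15.2 CPM in naive CD301bhi, CD301bint and CD301blo cDC2s. In the same papain classes it was at 1.21, 0.48 and 0.83 CPM. The papain sums came mostly from Sirpa and Irf4, at 80.8 and 69.7 CPM in CD301bhi cDC2s. The sums are thus no check of the split of cDC2s by CD301b. Median depth ran from 10767.5 to 15806.5 UMIs per cell over the naive classes and from 11351 to 18290 over the papain classes, and 2 cell barcodes occurred in both libraries. T cell markers summed to 146 CPM in naive and 20.5 CPM in papain cDC1s. None of the sorted classes is known to lack all of these receptors, so the background of free RNA was not measured.

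Tlr11 and Myd88 were the members of at least 20 UMIs with an interval above 0 in papain against naive cDC1s, so the 250 bases before their annotated starts are shown for comparison. They are from RefSeq (GRCm38.p6, which is mm10), 5′ to 3′ on the gene's strand. Of the 8 genes, 7 had an entry, and Tlr7 did not. Capitals mark matches on either strand to the letters of an interferon-stimulated response element (GAAA, any 2 bases, GAAA), an NF-kB site (GGG, any 2 bases, TTTCC), an AP-1 site (TGANTCA) or a PU.1 site (GAGGAAGT). The PU.1 and interferon-element matches before Tlr11 lie next to each other without overlap. Tlr11 spans chr14:50357914-50363663 and Myd88 chr9:119335934-119340018, and the stretches shown are chr14:50357664-50357913 and chr9:119340019-119340268. Tlr2 spans chr3:83836272-83841824. The starts in the promoter table for Tlr1, Tlr2, Tlr3 and Tlr6 lie inside the spans of these genes, and their stretches are not shown.
Tlr11: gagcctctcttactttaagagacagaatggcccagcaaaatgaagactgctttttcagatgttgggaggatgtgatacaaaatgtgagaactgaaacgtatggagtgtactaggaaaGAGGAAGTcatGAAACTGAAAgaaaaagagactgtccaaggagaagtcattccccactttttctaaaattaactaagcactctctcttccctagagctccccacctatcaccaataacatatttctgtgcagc
Myd88: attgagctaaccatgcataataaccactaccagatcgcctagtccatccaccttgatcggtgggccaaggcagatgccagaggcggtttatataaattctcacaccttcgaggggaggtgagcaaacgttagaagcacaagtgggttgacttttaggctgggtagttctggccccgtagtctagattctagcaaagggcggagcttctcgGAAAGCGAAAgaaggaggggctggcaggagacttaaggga

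The letters of the interferon-stimulated element stood in the stretches of Myd88 and Tlr11 and at 1 of the 2 annotated starts of Tlr6. They stood in 2.98% of 32851 promoter stretches of this length. The PU.1 letters stood in the stretch of Tlr11 and at 1 of the 2 starts of Tlr1, against 2.44% of all stretches. The AP-1 letters stood before Tlr9, against 6.75%, and the NF-kB letters before Tlr3, against 1.41%. No match to these exact letters was found in the stretch of Tlr2, and wider forms of the sites were not searched for. A match describes the letters alone.

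Tlr2 was detected in every class, and it was lower in papain than in naive cDC2s and LCs. In naive cells its level was 22.4 CPM (95% interval 19.8 to 25.3) in CD301bhi cDC2s, 28.2 CPM (25 to 31.6) in CD301bint cDC2s, 25.9 CPM (22.7 to 29.4) in CD301blo cDC2s, 16.7 CPM (13.5 to 20.6) in LCs and 8.11 CPM (6.40 to 10.1) in cDC1s. The intervals of the cDC2 classes overlapped one another, those of LCs and CD301bhi cDC2s overlapped, and cDC1s lay below LCs. In papain cells the same classes had 12.5 CPM (11.5 to 13.5), 11.4 CPM (10.2 to 12.6), 11.8 CPM (10.3 to 13.5), 10.8 CPM (9.34 to 12.4) and 7.81 CPM (5.0 to 11.6). Each of these overlapped its neighbour in order, so the papain classes lay much closer together than the naive ones.

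**Figure D1:**
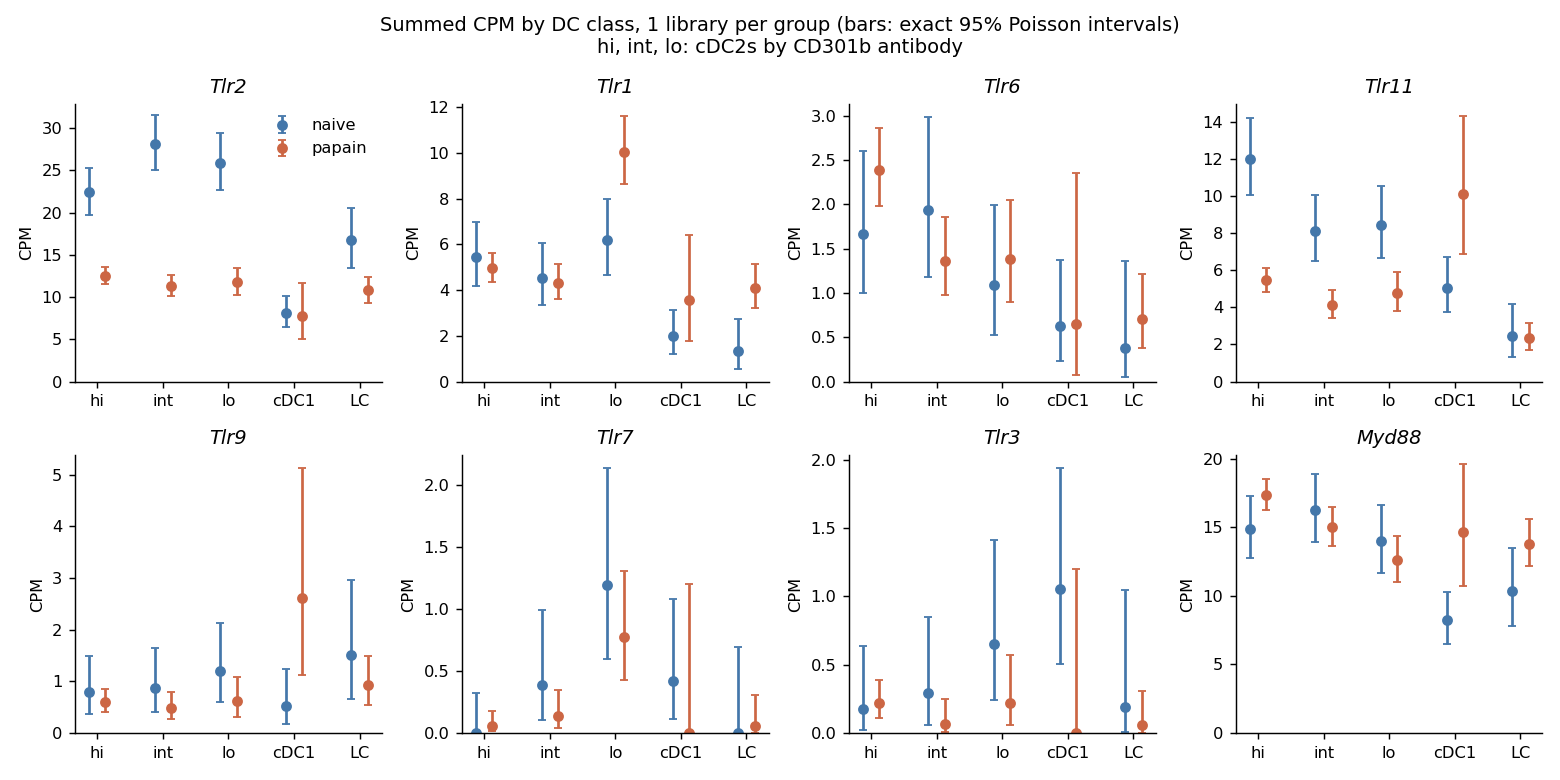
Summed level (y axis, CPM) of each of the 8 genes in the 5 DC classes (x axis) of the naive and the papain library, with exact 95% Poisson intervals as bars. Tlr2 runs from 8.11 to 28.2 CPM over the naive classes and from 7.81 to 12.5 CPM over the papain classes, and Tlr11 in cDC1s stands above the other papain classes.

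On the log2 scale the papain to naive ratio of Tlr2 was -0.84 (-1.05 to -0.63) in CD301bhi, -1.31 (-1.54 to -1.08) in CD301bint and -1.13 (-1.41 to -0.86) in CD301blo cDC2s. It was -0.63 (-1.0 to -0.26) in LCs and -0.05 (-0.78 to 0.62) in cDC1s. The level was thus 1.79-fold, 2.48-fold and 2.19-fold lower in the cDC2 classes and 1.55-fold lower in LCs. The share of cells with a Tlr2 UMI was also lower in papain cDC2s, by less than the level. In CD301bhi cDC2s a naive share of 19.0% (16.1 to 22.0) stood against a papain share of 17.1% (15.8 to 18.5), and the shares were 12.6% and 9.12% after each cell was thinned to 8392 UMIs. In CD301bint cDC2s the shares were 20.9% (17.9 to 24.3) in naive and 15.8% (14.1 to 17.5) in papain cells, or 13.4% and 8.31% after thinning. The difference was widest in CD301blo cDC2s, with 19.1% (16.2 to 22.4) and 11% (9.46 to 12.7), or 13.7% and 7.54% after thinning.

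In LCs the naive share of cells with a Tlr2 UMI was 14.3% (11.2 to 17.9) and the papain share 16.8% (14.4 to 19.4) before thinning, and 9.30% and 7.79% after it. The most Tlr2 UMIs in a cell were 13 among naive and 8 among papain cells.

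Most of the naive Tlr2 signal of the cDC2s came from few cells. The authors divided the cDC2s of each library into clusters by mRNA, 7 for naive and 9 for papain cells, with numbers that do not match between libraries. Naive cluster 5 held 246 cells, or 12.2% of the naive cDC2s, and 449 UMIs, or 57.1% of the Tlr2 UMIs of these cDC2s. Its Tlr2 level was 91.9 CPM (83.6 to 101), against 12.9 CPM (11.6 to 14.4) in the 1778 other naive cDC2s. A Tlr2 UMI was found in 55.7% of its cells and in 14.7% of the others. In the other naive clusters Tlr2 lay between 0 UMIs in cluster 6 and 16.4 CPM in cluster 1, and in the papain clusters between 5.29 and 21.5 CPM.

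**Figure D2:**
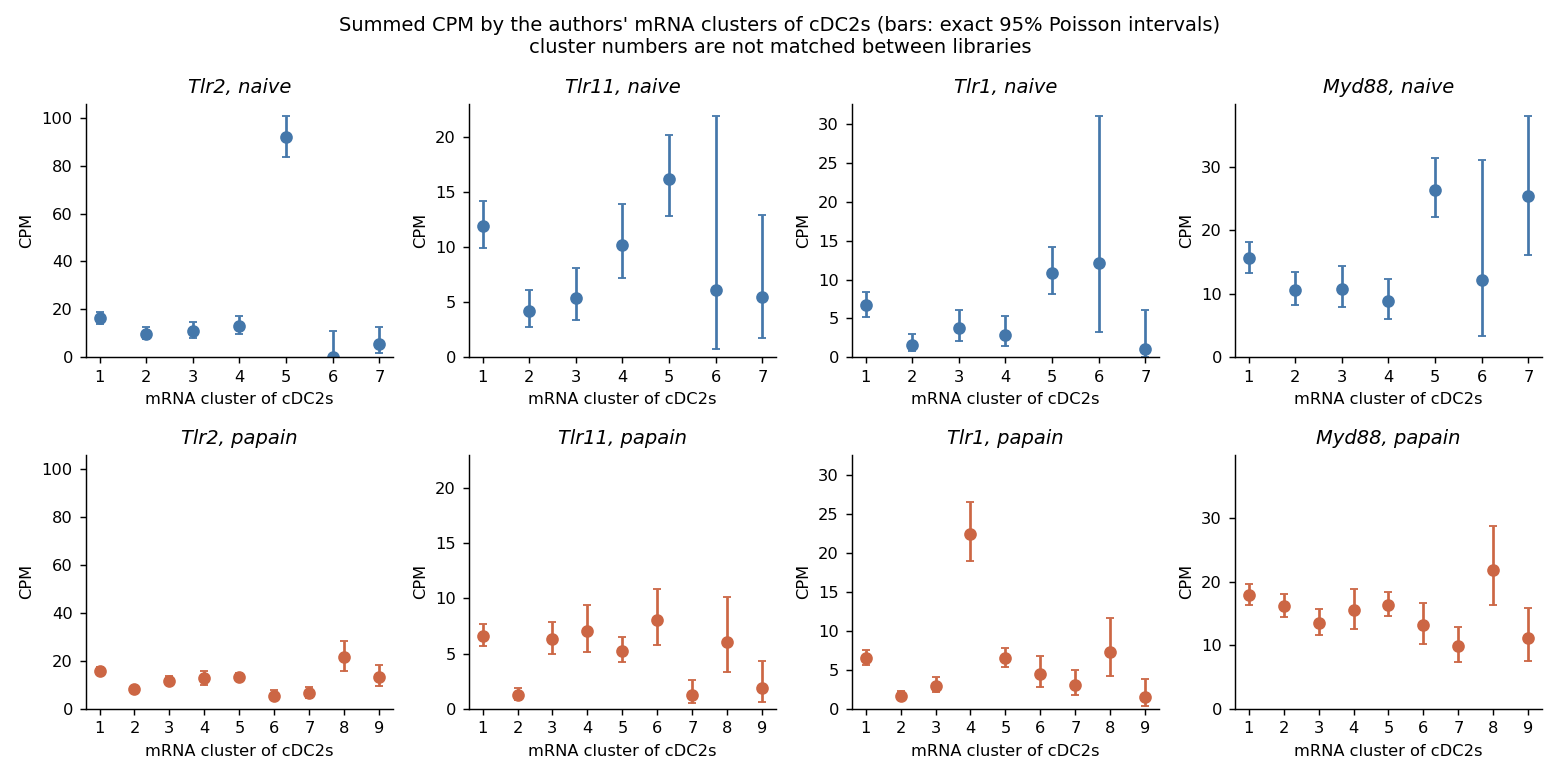
Summed level (y axis, CPM) of Tlr2, Tlr11, Tlr1 and Myd88 in the authors' mRNA clusters of cDC2s (x axis), naive above and papain below, with exact 95% Poisson intervals as bars. Naive cluster 5 stands apart for Tlr2 at 91.9 CPM, and papain cluster 4 for Tlr1 at 22.5 CPM.

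When the cells of naive cluster 5 were left out, the papain to naive ratio of Tlr2 in cDC2s came close to 0. The cluster was picked after its high Tlr2 was seen and was taken from the naive library alone, so a smaller difference follows in part from that choice. The log2 ratio was then -0.16 (-0.42 to 0.11) in CD301bhi, -0.20 (-0.51 to 0.12) in CD301bint and 0.09 (-0.30 to 0.49) in CD301blo cDC2s. The naive levels left were 14.0, 13.0 and 11.1 CPM. The cluster made up 5.52% of the CD301bhi, 9.71% of the CD301bint and 21.7% of the CD301blo naive cDC2s, and its Tlr2 level in these classes was 121, 121 and 65.0 CPM. The clusters were drawn from the same mRNA values, in each library on its own, so these levels are a description, and the papain library was not searched for matching cells.

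Naive cluster 5 differed from the other naive cDC2s in several further ways. Ccr7, the chemokine receptor that guides DCs into lymph nodes and which was named after its values were seen, was at 1389 CPM in it and at 4087 CPM outside it. Cd14, a co-receptor of TLR2 and TLR4, was at 103 CPM inside and 9.54 CPM outside, and Cd180, a receptor related to TLR4, at 84.5 and 2.11 CPM. The 7 listed macrophage and monocyte markers, 0 of them at 0 inside and 1 outside, summed to 343 CPM inside and 13.6 CPM outside. The 5 cDC2 markers summed to 719 and 130 CPM, and the 6 B cell markers to 72.6 and 22.2 CPM. The 4 plasmacytoid DC markers, 1 of them at 0 inside, summed to 248 and 141 CPM. Over whole naive classes Tcf4 gave most of this sum, 131 of 133 CPM in CD301bhi and 167 of 179 CPM in CD301blo cDC2s. By class the sum was lower inside than outside in CD301bhi cDC2s, at 112 and 135 CPM. It was higher inside in CD301bint cDC2s, at 219 and 157 CPM, and in CD301blo cDC2s, at 313 and 128 CPM. The cDC1, T cell and NK cell markers were lower inside, at 383, 5.73 and 1.23 CPM against 478, 30.0 and 15.8 CPM. Over whole classes the 7 macrophage and monocyte markers summed to 33.5, 84.5 and 84.3 CPM in naive CD301bhi, CD301bint and CD301blo cDC2s. In papain ones they summed to 16.4, 14.8 and 32.5 CPM, but not every gene of the list was lower. Csf1r and Adgre1 were lower in papain in each cDC2 class. C1qa, C1qb and C1qc were lower in CD301bint and CD301blo cDC2s and higher in CD301bhi cDC2s. Ly6c2 was higher in papain CD301bint and CD301blo cDC2s and lower in CD301bhi cDC2s. Fcgr1 was higher in each papain cDC2 class, on few UMIs, and was at 0 in naive CD301bhi and CD301bint cDC2s. The part of cells with such markers in the Tlr2 values was not tested.

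Naive cluster 5 also held 26.4% of the naive cDC2 UMIs of Tlr11, 27.6% of those of Myd88, 31.9% of those of Tlr1 and 42.9% of those of Tlr6. Their levels inside and outside it were 16.2 and 8.43 CPM for Tlr11, 26.4 and 13.0 CPM for Myd88, 10.8 and 4.33 CPM for Tlr1, and 4.30 and 1.07 CPM for Tlr6. Of the 15 Tlr7 UMIs of naive cDC2s 11, or 73.3%, lay in cluster 5, as did 7 of the 11 Tlr3 UMIs, whereas only 4 of the 29 Tlr9 UMIs did.

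Tlr11 was lower in papain than in naive cDC2s and higher in papain than in naive cDC1s. Its naive level was 12 CPM (10.1 to 14.2) in CD301bhi, 8.13 CPM (6.48 to 10.1) in CD301bint and 8.45 CPM (6.68 to 10.6) in CD301blo cDC2s, 5.06 CPM (3.73 to 6.70) in cDC1s and 2.45 CPM (1.30 to 4.18) in LCs. Its papain level in the same order was 5.46 CPM (4.83 to 6.14), 4.12 CPM (3.42 to 4.92), 4.76 CPM (3.81 to 5.88), 10.1 CPM (6.86 to 14.3) and 2.34 CPM (1.70 to 3.16). In the papain library cDC1s lay above every other class and LCs below every other class without overlap of the intervals, while in the naive library each class overlapped the next in order.

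The log2 ratio of Tlr11 was -1.14 (-1.44 to -0.83), -0.98 (-1.39 to -0.56) and -0.83 (-1.29 to -0.37) in CD301bhi, CD301bint and CD301blo cDC2s, 1.00 (0.30 to 1.68) in cDC1s and -0.06 (-0.98 to 0.96) in LCs. The cDC1 value rests on 48 naive and 31 papain UMIs. Without naive cluster 5 the values in cDC2s were -0.95 (-1.27 to -0.62), -0.76 (-1.21 to -0.29) and -0.56 (-1.09 to -0.02). The cDC1 value was 0.93 when cells with a B or T cell gene UMI were left out. T cell markers summed to 146 CPM in naive and 20.5 CPM in papain cDC1s, and their part in the difference was not tested. In papain cDC1s against the other papain classes together, Tlr11 was 2.23-fold higher (log2 1.16, 0.59 to 1.68), whereas in naive cDC1s it was 1.70-fold lower (log2 -0.77, -1.24 to -0.32). Over the papain clusters of cDC2s it ran from 1.24 CPM in cluster 2 to 8.03 CPM in cluster 6.

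**Figure D3:**
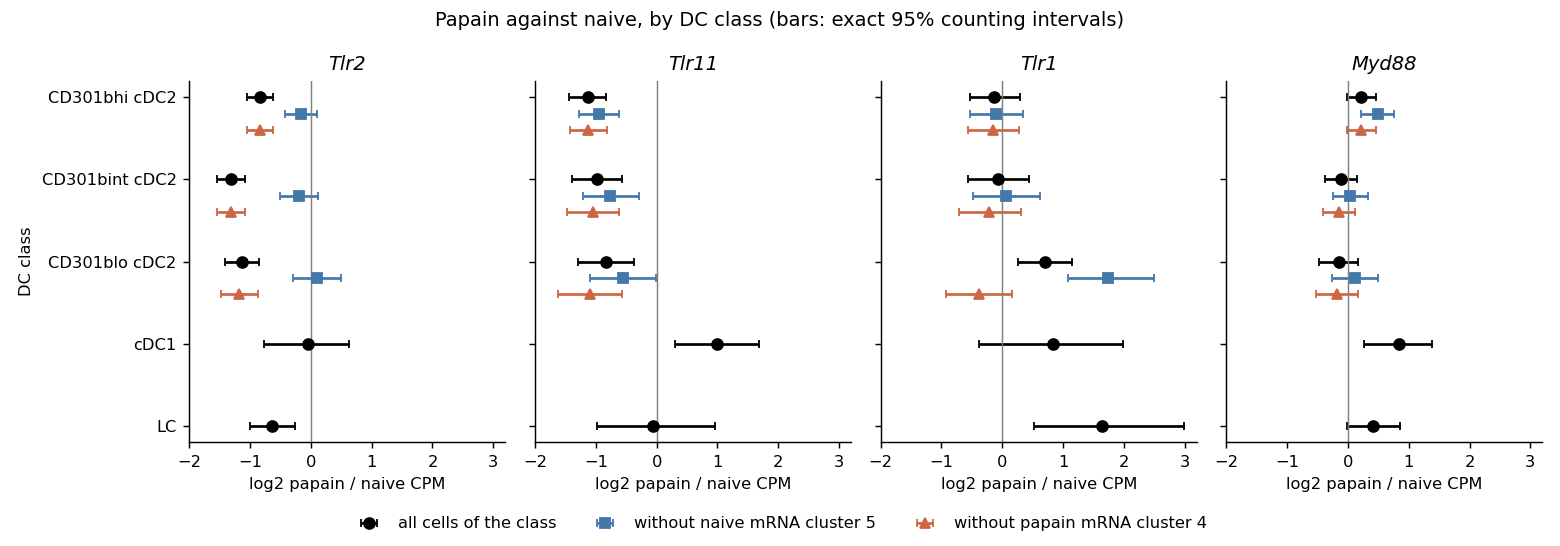
Papain to naive log2 ratio (x axis) of Tlr2, Tlr11, Tlr1 and Myd88 in each DC class (y axis), with exact 95% counting intervals as bars. Black points are all cells of a class, blue squares leave out naive mRNA cluster 5, which moves Tlr2 in CD301bhi cDC2s from -0.84 to -0.16, and orange triangles leave out papain mRNA cluster 4, which moves Tlr1 in CD301blo cDC2s from 0.70 to -0.38.

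Tlr1, a partner of Tlr2, was highest in papain CD301blo cDC2s. Its naive level was 5.43 CPM (4.16 to 6.96) in CD301bhi, 4.55 CPM (3.34 to 6.05) in CD301bint and 6.18 CPM (4.68 to 8.0) in CD301blo cDC2s, 2.0 CPM (1.20 to 3.13) in cDC1s and 1.32 CPM (0.53 to 2.71) in LCs. In papain cells the same classes had 4.96 CPM (4.37 to 5.62), 4.32 CPM (3.60 to 5.14), 10.0 CPM (8.62 to 11.6), 3.58 CPM (1.79 to 6.41) and 4.09 CPM (3.21 to 5.12). The naive cDC2 classes overlapped one another and lay above cDC1s and LCs, and in the papain library CD301blo cDC2s lay above the rest, which overlapped in order. The log2 ratio was 0.70 (0.26 to 1.15) in CD301blo cDC2s and -0.13 and -0.07 in the other cDC2 classes.

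The papain level of Tlr1 in CD301blo cDC2s came largely from papain mRNA cluster 4, in which 78.5% of the 671 cells were CD301blo. Its CD301blo cells held 119 Tlr1 UMIs, 65.7% of those of the class, with a level of 24.0 CPM inside and 4.73 CPM outside the cluster. Left out after its high Tlr1 was seen, and from the papain library alone, the cluster took the log2 ratio of the class to -0.38 (-0.93 to 0.16). In the naive library 64.9% of the Tlr1 UMIs of CD301blo cDC2s lay in cluster 5, and without that cluster the ratio was 1.75 (1.08 to 2.49). That cluster was left out of the naive library alone, so a higher ratio follows in part from the choice. In papain cluster 4, Irf7, a transcription factor of the TLR7 and TLR9 branch, was at 63.5 CPM. The 6 B cell markers, 1 of them at 0, summed to 49.1 CPM there against 6.80 CPM in the other papain cDC2s. Among CD301blo cDC2s alone they summed to 55.4 CPM inside and 18.9 CPM outside the cluster. Over the papain cDC2s the T cell, NK cell, macrophage and monocyte, and plasmacytoid DC markers were lower inside. They summed to 4.94, 0.16, 16.0 and 163 CPM inside and 12.1, 1.46, 19.1 and 194 CPM outside the cluster. The cDC1 markers summed to 717 CPM inside and 468 CPM outside it, and the cDC2 markers, 1 of them at 0 inside, to 110.2 and 148 CPM. Over all papain CD301blo cDC2s Irf8 and Batf3, at 232 and 266 CPM, gave most of a cDC1 sum of 508 CPM. The part of cells with such markers in the Tlr1 value was not tested. The ratio in CD301blo cDC2s was 0.92 without cells holding a B or T cell gene UMI.

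In LCs, Tlr1 had 7 naive and 75 papain UMIs, a log2 ratio of 1.63 (0.52 to 3.0). Its share of cells was 1.36% (0.50 to 2.94) among naive LCs and 7.26% (5.64 to 9.18) among papain LCs, or 0.998% and 2.96% after thinning. The log2 ratios of Tlr1 and Tlr2 thus had opposite signs in LCs, with intervals that cover counting error only and take every UMI as independent. The naive Tlr1 level rests on 7 UMIs, and median depth was 10767.5 UMIs in naive and 18290 in papain LCs. Before thinning, the share of cells with a Tlr2 UMI was not lower in papain LCs. In cDC1s the Tlr1 ratio was 0.84 (-0.38 to 1.98) on 19 and 11 UMIs, and 2.02 without cells holding a B or T cell gene UMI.

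Tlr6, the other partner of Tlr2 and a close relative and neighbour of Tlr1 (Tlr1 at chr5:64924680-64933600, Tlr6 at chr5:64953092-64970942), was thinly counted. Reads from stretches that the pair share could have been lost or misplaced by the counting. In naive cells it had 1.66 CPM in CD301bhi, 1.94 CPM in CD301bint and 1.08 CPM in CD301blo cDC2s, 0.63 CPM in cDC1s and 0.38 CPM in LCs, and in papain cells 2.39, 1.36, 1.38, 0.65 and 0.71 CPM. All neighbours in order overlapped in each library. Its papain to naive intervals included 0 in the 3 cDC2 classes. Within the papain library CD301bhi cDC2s had 1.73-fold more Tlr6 than CD301blo cDC2s (log2 0.79, 0.16 to 1.47) and 2.02-fold less Tlr1 (log2 -1.01, -1.30 to -0.73). The Tlr1 difference was 0.04 without papain cluster 4.

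Myd88, the shared adaptor, was detected in every class and differed by under 1.5-fold between the libraries in cDC2s and LCs, and by more in cDC1s. In naive cells it had 14.9 CPM (12.7 to 17.3) in CD301bhi, 16.3 CPM (13.9 to 18.9) in CD301bint and 14.0 CPM (11.7 to 16.6) in CD301blo cDC2s, 8.22 CPM (6.49 to 10.3) in cDC1s and 10.3 CPM (7.80 to 13.5) in LCs. In papain cells it had 17.3 CPM (16.2 to 18.5), 15 CPM (13.6 to 16.5), 12.6 CPM (11 to 14.3), 14.6 CPM (10.7 to 19.6) and 13.8 CPM (12.1 to 15.6). Each class overlapped its neighbour in order in both libraries. The log2 ratio was 0.83 (0.27 to 1.38) in cDC1s on 78 and 45 UMIs, 0.41 (-0.01 to 0.86) in LCs, and between -0.15 and 0.22 in the cDC2 classes. The level was thus 1.78-fold higher in papain than in naive cDC1s, and naive cDC1s were 1.75-fold below the other naive classes together (log2 -0.81, -1.17 to -0.46). Without cells holding a B or T cell gene UMI the papain to naive value in cDC1s was 1.10.

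The endosomal receptors were close to the limit of detection. Tlr9, which binds unmethylated CpG DNA, had 5 to 11 UMIs per naive class and 8 to 30 per papain class. Its papain cDC1 level was 2.60 CPM (1.12 to 5.13), from 8 cells with 1 UMI each, against 0.53 CPM (0.17 to 1.23) in naive cDC1s, and its other class levels lay between 0.48 and 1.51 CPM. Tlr7, which binds single-stranded RNA, had at most 14 UMIs in a class and was at 0 in naive CD301bhi cDC2s, naive LCs and papain cDC1s. For 707, 440 and 235 cells a count of 0 allows shares of cells with a UMI of up to 0.424%, 0.682% and 1.28%. In CD301blo cDC2s Tlr7 had 11 naive and 14 papain UMIs.

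Tlr3, which binds double-stranded RNA and is known for its expression in cDC1s, had 10 UMIs in 4 of the 578 naive cDC1s and none in the 235 papain cDC1s, which allows a share of cells with a UMI of up to 1.28%. Naive cDC1s had 3.19-fold more Tlr3 than the other naive classes together (log2 1.67, 0.30 to 3.01, on 10 and 12 UMIs). No class had more than 11 UMIs of it. Such counts are too few to rank the classes.

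A gene was counted as higher or lower where its CPM differed by 1.5-fold or more between groups that held at least 20 of its UMIs together. The fold alone was used, so the counts include members whose interval held 0, among them Tlr1 in cDC1s. Another was Tlr9 in CD301bint cDC2s, on 14 papain and 9 naive UMIs (log2 -0.87, -2.18 to 0.52). Beside each count stands the share of all tested genes called the same way. For papain against naive, 0 members were higher and 2 were lower of 6 tested in CD301bhi cDC2s (13.9% and 15.6% of all genes), and 0 and 3 of 6 in CD301bint cDC2s (12.3% and 18.4%). In CD301blo cDC2s 1 was higher and 4 were lower of 7 (11.5% and 22.5%), in cDC1s 3 and 0 of 4 (10.0% and 22.4%), and in LCs 1 and 2 of 5 (16.2% and 16.1%). Over all cells with a class, 0 were higher and 4 were lower of 8 (8.64% and 21.0%). Without naive cluster 5 the counts over all classed cells were 2 and 1 (9.1% and 18.8%), with Tlr1 and Tlr6 higher at log2 0.67 and 0.94 and Tlr2 at -0.07. In CD301bhi cDC2s they were then 1 and 1 (14.6% and 13.9%) and in CD301blo cDC2s 2 and 0 (11.5% and 17.8%). Without papain cluster 4 they were 0 and 2 in CD301blo cDC2s (11.3% and 20.6%). Each cluster was left out of its own library alone after its high Tlr2 or Tlr1 was seen. Naive cluster 5 was also high in Tlr1 and Tlr6. The counts without a cluster thus follow in part from that choice.

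Within libraries, naive cDC1s against the other classes had 1 member higher and 6 lower of 7 tested (14.4% and 22.3% of all genes), and papain cDC1s 2 and 4 of 7 (15.3% and 30.6%). Genes of at least 10 CPM had a median log2 ratio of -0.11 in this papain comparison and within 0.1 of 0 in all others. The lower papain members included Tlr7, whose 0 UMIs the depth of cDC1s could not set apart from the level of the other classes. In the naive library Tlr2 was 2.97-fold lower in cDC1s (log2 -1.57, -1.93 to -1.23), and Tlr1 was 2.38-fold lower. Naive LCs against the other classes had 1 member higher and 4 lower of 7 (16.6% and 19.9%), and papain LCs 0 and 3 of 7 (16.0% and 12.2%). Tlr11 was lower in LCs in both libraries, at log2 -1.81 (-2.73 to -1.02) and -1.12 (-1.60 to -0.67). CD301bhi against CD301blo cDC2s had 1 member higher and 1 lower of 6 among naive cells (5.96% and 19.1%) and as many among papain cells (7.29% and 13.4%).

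At the level of single cells, a UMI of at least 1 of the 8 genes was found in 43.6%, 45.1% and 40.1% of naive CD301bhi, CD301bint and CD301blo cDC2s, 27.5% of cDC1s and 26.1% of LCs. In papain cells the shares were 45.9%, 39.8%, 34.9%, 34.0% and 41.2%. A naive CD301blo cDC2 held UMIs of 7 of the genes, the most in any cell. Tlr2 and Myd88 were found together in 37 naive CD301bhi cDC2s, where the product of their shares gives 24.8, and in 133 papain ones, where it gives 116. Tlr2 and Tlr1 were found together in 15 and 53 cells of the same classes, against 10.2 and 35.9, and Tlr2 and Tlr11 in 33 and 49, against 18.4 and 37.5. In papain CD301blo cDC2s the last pair went the other way, with 4 cells against 8.16. Cells of greater depth hold more UMIs of every gene, so these pairs are a description.

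Lists of genes around the receptors are given over all classed cells, where 8.64% of all tested genes were higher and 21.0% lower. The mix of classes differed between libraries, with cDC1s 578 of 3042 naive and 235 of 7306 papain cells. These pooled ratios therefore join differences in that mix with differences within classes. Of 23 adaptors and kinases, Myd88 among them, 1 was higher and 2 were lower in papain over all classed cells, with a median log2 ratio of 0.12 against -0.08 over all tested genes. The gene that was higher was Irf7, at 6.01 CPM in naive and 19.4 CPM in papain cells (log2 1.69, 1.51 to 1.88). Irf7 was higher in all 5 classes, from 1.01 in CD301blo to 3.90 in CD301bhi cDC2s. Ikbke, a kinase upstream of IRF3 and IRF7, was at -1.26 (-1.69 to -0.83), and Ticam2, which bridges TLR4 to TRIF, at -0.79 (-1.03 to -0.54). Ikbkb, which encodes the kinase IKK-beta of the NF-kB branch, was at 0.55.

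The other genes of the signalling chain that were named lay within 1.5-fold over all classed cells. Ticam1, the TRIF adaptor of TLR3, was at 0.20, and Tirap, which brings MyD88 to TLR2 and TLR4, at 0.12. The IRAK kinase genes Irak2 and Irak4 were at -0.27 and 0.36, the ubiquitin ligase gene Traf6 at 0.12 and Irf5 at 0.13. In cDC1s alone 4 of 22 adaptors and kinases were higher and 4 were lower, where 10.0% of all tested genes were higher and 22.4% lower, with Ticam1 at 0.71 (0.31 to 1.09) and Tirap at -1.18 (-2.89 to 0.18).

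**Figure D4:**
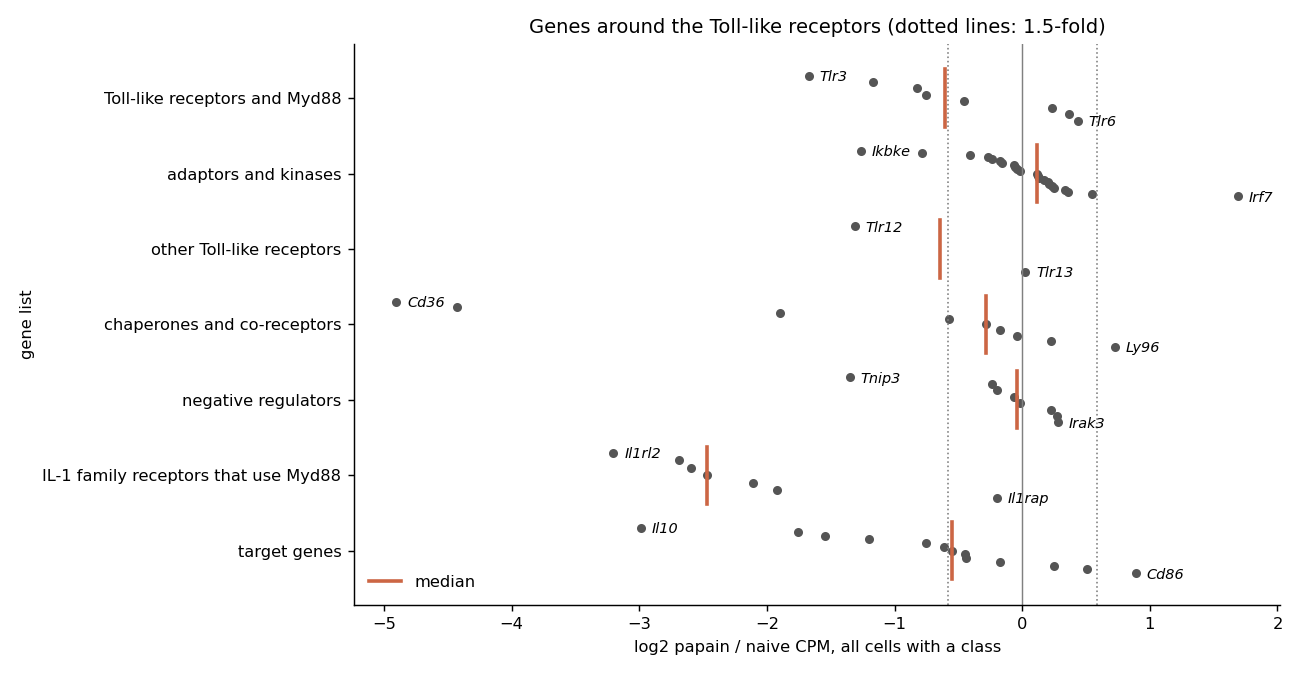
Papain to naive log2 ratio over all classed cells (x axis) of every tested gene of the 8 members and of 6 lists of related genes (y axis), each point a gene, orange bars the list medians and dotted lines 1.5-fold. The IL-1 family receptors have a median of -2.47, and Irf7 stands at 1.69 among adaptors with a median of 0.12.

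Of 9 listed chaperones and co-receptors, 1 was higher and 3 were lower (8.64% and 21.0% of all genes). Ly96, which encodes the MD-2 subunit of the TLR4 complex, was higher, at 41.4 CPM in naive and 68.6 CPM in papain cells (log2 0.73, 0.66 to 0.80), and between 0.48 and 0.76 in the 5 classes. Cd36, a scavenger receptor that hands lipids to the TLR2 and TLR6 pair, was at -4.90 (-5.53 to -4.34), Cd180 at -4.43 (-4.82 to -4.06) and Cd14 at -1.90 (-2.05 to -1.75). Naive cluster 5 held 77.4% of the Cd36, 88.2% of the Cd180 and 66.9% of the Cd14 UMIs of naive cDC2s, and without it Cd14 was at -0.88 (-1.19 to -0.56) in CD301bhi cDC2s. Unc93b1, which carries the endosomal receptors and TLR11 out of the endoplasmic reticulum, was lower in papain CD301bhi cDC2s at 57.3 and 35.9 CPM (log2 -0.68, -0.80 to -0.54) and higher in papain cDC1s at 58.1 and 91.5 CPM (log2 0.65, 0.44 to 0.86).

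Of the other Toll-like receptor genes, Tlr12, which pairs with Tlr11, was lower in papain over all classed cells at -1.31 (-1.69 to -0.93) and Tlr13, a sensor of bacterial ribosomal RNA, was at 0.02 (-0.27 to 0.33). Tlr12 was highest in cDC1s in both libraries, at 5.06 CPM in naive and 4.88 CPM in papain cells, with intervals that overlapped those of CD301blo cDC2s. The cDC1s were 578 of 3042 naive and 235 of 7306 papain cells. Tlr12 was also lower within the other papain classes. In LCs it was at 3.01 CPM (1.72 to 4.89) in naive and 0.76 CPM (0.42 to 1.28) in papain cells. In CD301bhi, CD301bint and CD301blo cDC2s it was at 0.88, 1.45 and 3.03 CPM in naive and 0.75, 0.61 and 2.11 CPM in papain cells. Tlr5 and Tlr8 were not analysed here. Of 8 negative regulators 1 was lower, Tnip3, an inhibitor of NF-kB signalling, at -1.35 (-1.43 to -1.28), and Irak3, a brake on the IRAK kinases, was at 0.28 (0.13 to 0.43) over all classed cells and 0.82 in LCs. Sigirr, an inhibitor of IL-1 receptor and TLR signals, was at 0.27, and Cyld, a deubiquitinase that restrains NF-kB, at -0.24.

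The 7 IL-1 family receptor genes had 6 members lower and 0 higher (21.0% and 8.64% of all genes), with a median of -2.47. Il1rl2, part of the IL-36 receptor, was at -3.20 (-4.07 to -2.41), Il1r1 at -2.69 (-3.26 to -2.15) and the decoy receptor gene Il1r2, which does not itself signal, at -1.92 (-2.09 to -1.74). Il18r1 was at -2.59, Il1rl1, the IL-33 receptor, at -2.11, and the shared chain gene Il1rap at -0.20 (-0.54 to 0.15). The Il1rl1 value rests on 33 naive and 20 papain UMIs. Il18r1 was lower in papain in each class. Among naive classes it was highest in cDC1s, at 23.4 CPM, where T cell markers summed to 146 CPM. The part of T cell RNA in the Il18r1 value was not tested. Without naive cluster 5 the list had 4 lower and 0 higher of 7 and a median of -1.46. Of 13 genes that TLR signals are known to induce, 1 was higher, Cd86 at 0.89 (0.85 to 0.93), and 6 were lower (8.64% and 21.0% of all genes), with Il10 at -2.99 (-3.76 to -2.28) and Il12b at -1.76 (-1.81 to -1.71). Il12a, the other IL-12 subunit gene, was at 0.50 (-0.53 to 1.68) on 10 naive and 37 papain UMIs. In cDC1s, Il12b was at 330 CPM in naive and 279 CPM in papain cells (log2 -0.24).

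The genes whose levels followed the members most closely over the 10 combinations of class and library were listed for members with at least 50 UMIs, by Pearson's r of log2(CPM + 1) among 8443 genes. For Tlr2 these were Gm48611 (0.97), Map2k7 (0.97) and Pmaip1 (0.97), for Tlr11 Klf16 (0.96), Psap (0.94) and Sgpl1 (0.94), and for Myd88 Crkl (0.94), Pacsin2 (0.94) and Taok3 (0.93). For Tlr1 they were Gm43788 (0.95), Kif21b (0.93) and Ncf4 (0.93), for Tlr6 Ttc17 (0.95), M1ap (0.94) and Irak3 (0.94), and for Tlr9 Mtmr2 (0.91), 4930523C07Rik (0.90) and Brca2 (0.90). The 10 points share 2 libraries and their depth, and the highest of 8443 values is high by selection.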

How the data were processed

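Per the labels, the authors counted reads with Cell Ranger (3.0.1) on mm10 and analysed the cells in Partek. The deposited expression tables hold CPM plus 1 on the log2 scale, and the deposited antibody tables hold natural log (ln) values for 12 antibodies centred within each cell, both worked out from the values. The filters on cells and genes are not given in the sources used here. The deposited total counts and numbers of expressed genes served as checks. UMIs were recovered from the steps between low values, and 100% of entries up to 50 UMIs lay within 0.02 of a whole number. Cells held 3637 to 57378 UMIs in the naive library and 2682 to 57150 in the papain library. A class was given for 3042 of 3471 naive and 7306 of 7596 papain cells, and the other 429 and 290 entered no comparison. Doublets were not called.

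UMIs were summed over each class and library and divided by the class total. Ratios are of summed CPM with no pseudocount, and 95% intervals cover counting error. Python (3.11.15), numpy (2.4.6), pandas (2.3.3), scipy (1.17.1) and matplotlib (3.10.9) were used, and the ratio code was tested on simulated data. The members, the pathway lists and the markers were chosen with earlier results of these data known. All members were named, and of the pathway lists a set of genes given beforehand plus the up to 2 highest and 2 lowest ratios of each list with at least 20 UMIs. A member's 3 closest genes had at least 10 CPM in some combination. Alternatives added 1 or 10 CPM, averaged CPM over cells, recentred ratios, dropped cells (under 500 genes or over 10% mitochondrial UMIs, a B or T cell gene UMI, the deepest 5%), set the minimum of UMIs to 0 or 50, cut cDC2s anew by CD301b, weighted classes equally, thinned cells to 8392 UMIs or asked for 2 UMIs.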

Additional observations from a re-analysis of the deposited data

Results flagged for a closer look

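Tlr11 was lower in papain than in naive cells in 1 group of classes and higher in another, with log2 ratios of -1.14, -0.98 and -0.83 in CD301bhi, CD301bint and CD301blo cDC2s and 1.00 in cDC1s. The intervals of the cDC2 ratios do not reach that of cDC1s, but with 1 library per group the difference was not tested. T cell markers summed to 146 CPM in naive and 20.5 CPM in papain cDC1s, and their part in it was not tested. The cDC1 ratio was 0.93 without cells holding a B or T cell gene UMI.

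The cells without a class entered no comparison. In the 290 papain cells of this kind Tlr1 was at 9.28 CPM (6.01 to 13.7, 25 UMIs), against 4.66 CPM (3.22 to 6.51) in the 429 naive ones, and Tlr7 was at 1.86 CPM (0.60 to 4.33, 5 UMIs), against 0.14 CPM (0.00 to 0.76, 1 UMI). T cell markers summed to 1687 CPM in the papain and 676 CPM in the naive cells without a class, whose median depths were 6965.5 and 9593 UMIs, and their part in these values was not tested.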

How the results depend on the processing

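No paired analysis was possible because there is 1 library per group and the labels give no replicate numbers. The log2 ratios of the members reversed direction in 3 cases, all under settings chosen after seeing the data. Tlr2 in papain against naive CD301blo cDC2s was 0.093 without naive mRNA cluster 5. Without papain mRNA cluster 4, Tlr1 was -0.38 in papain against naive CD301blo cDC2s and 0.041 in papain CD301bhi against CD301blo cDC2s. Of the other ratios under an alternative, 517 lay inside the counting interval of the value given above and 49 outside it. Of the shares of cells, 41 lay inside theirs and 119 outside, under thinning or when 2 UMIs were asked for, which lowers shares by construction.

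Counts of members past 1.5-fold are small, and 158 of them stayed within 1.5 times the reported count while 70 moved. With 10 CPM added, which shrinks ratios of genes at low level by construction, the papain against naive counts that moved were 0 lower in CD301bhi, 1 lower in CD301bint, 0 higher and 1 lower in CD301blo cDC2s, 0 higher in cDC1s, 0 higher and 0 lower in LCs and 0 lower over all classes. Between classes they were 0 higher and 1 lower for naive cDC1s, and 0 in either direction for papain cDC1s, naive LCs and both CD301bhi against CD301blo comparisons, with 0 lower for papain LCs. With 1 CPM added they were 2 lower in CD301blo cDC2s, 1 lower in LCs, 2 lower over all classes, 0 higher for naive LCs, 1 lower for papain cDC1s, 0 in either direction for naive and 0 higher for papain CD301bhi against CD301blo cDC2s. With the mean over cells of CPM they were 1 higher in CD301bhi and 2 lower in CD301blo cDC2s, 2 higher over all classes, and 0 higher for naive LCs and both CD301bhi against CD301blo comparisons.

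Without the deepest 5% of cells they were 1 higher in CD301bhi and 2 higher in CD301blo cDC2s, 1 lower in LCs, 1 higher over all classes, 0 higher for naive cDC1s, 2 lower for papain cDC1s and 0 higher for naive CD301bhi against CD301blo cDC2s. With no minimum of UMIs they were 1 higher in CD301bhi and 5 lower in CD301bint cDC2s, 2 lower in cDC1s, 3 higher in LCs, and 3 and 2 lower for naive and papain CD301bhi against CD301blo cDC2s. With a minimum of 50 UMIs they were 2 lower in CD301blo cDC2s, 1 lower in LCs, 2 lower over all classes, 0 higher for naive cDC1s and LCs, and 0 in either direction for naive CD301bhi against CD301blo cDC2s. Without cells holding a B or T cell gene UMI they were 2 lower in CD301blo cDC2s, 2 higher and 0 lower for naive CD301bhi against CD301blo cDC2s and 1 higher for papain LCs. With cDC2s cut anew into 3 groups by CD301b they were 0 lower for naive and 0 higher for papain CD301bhi against CD301blo cDC2s.

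Without naive mRNA cluster 5 the counts were 1 higher and 1 lower in CD301bhi and 2 higher and 0 lower in CD301blo cDC2s, 2 higher and 1 lower over all classes, and 2 higher and 0 lower for naive CD301bhi against CD301blo cDC2s. Without papain mRNA cluster 4 they were 0 higher and 2 lower in CD301blo cDC2s and 0 lower for papain CD301bhi against CD301blo cDC2s. Apart from the cell, gene and cluster choices named, the cause of these moves was not tested. Depth limits Tlr3, Tlr7 and Tlr9, with at most 30 UMIs in a class, and every cDC1 value from the 235 papain cells.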
